A study of Mus musculus with 8 samples.

Results

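Lymphoid-primed progenitors were taken from a single-cell RNA-seq experiment on bone marrow of mice kept in specific-pathogen-free (SPF) rooms or moved to a conventional (CVT) facility. A cell was counted as a Dntt/Flt3 cell when it held at least 2 UMIs of Dntt and at least 1 of Flt3, and none of Il7r, Procr or Cd79a. A UMI (unique molecular identifier) marks 1 captured transcript, so that its amplified copies are counted once. In all, 1798 of 29891 cells met this rule. The cells were thus chosen by measured values, and the levels of Dntt, Flt3, Il7r, Procr and Cd79a are a description with no test.

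Dntt encodes terminal deoxynucleotidyl transferase, which adds untemplated bases where antigen receptor gene segments are joined, and it is switched on in progenitors before they commit to the B or T lineage. Flt3 is a receptor tyrosine kinase of multipotent and lymphoid-primed progenitors, and its ligand is needed for normal numbers of lymphoid and dendritic cells. Il7r, the receptor chain that carries the interleukin-7 signal, marks the next step, the common lymphoid progenitor. Procr marks stem cells and Cd79a the B lineage, so the rule asked for cells past the stem cell and short of B cell commitment.

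All mice were female B6 mice aged 3 to 4 months. CVT mice had spent 1 month in the conventional facility, co-housed with mice born there, and SPF mice stayed in the SPF facility. By the sample titles each group had 10 mice, whose cells were pooled into 4 samples of 2 or 3 mice; the study's text gives a smaller number of mice per group, a difference that was not resolved here. The sorted KL cells carried CD117 (c-Kit), lacked the lineage antigens CD3, CD4, CD8, CD45R, CD11b, TER119 and GR1, and were captured by the 10x Genomics droplet method. Pools 1, 2, 7 and 8 were SPF and pools 3, 4, 5 and 6 CVT. The pools held 19041749 to 59812346 UMIs, and a cell 2759 to 49732. The same barcode occurred in more than 1 pool for 1048 cells, 64 of them Dntt/Flt3 cells, and whether these were separate cells was not tested. A value with ± is the mean with the SD across all 8 pools unless a group is named. The pool, not the cell, was the replicate. Within a group the pools differed by more than the sampling of UMIs, with a chi-square per degree of freedom of 1.43 to 4.68 over pairs of pools.

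The cells were compared with 3 other populations of the same pools. Dntt-free Flt3 cells met the rule in all but Dntt, of which they held no UMI (3888 cells). Il7r-positive cells met it in all but Il7r, of which they held at least 1 UMI (330 cells). Erythroid reference cells, with at least 2 UMIs each of Klf1 and Car1 and none of Flt3 (4836 cells), should lack lymphoid and granule genes and served to show the level of free RNA in the droplets; their rule was chosen after the data were seen. The median cell held 8654.5 UMIs among Dntt/Flt3 cells, 12282 among Dntt-free Flt3 cells, 10952 among Il7r-positive cells and 15424.5 among erythroid reference cells.

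The sequences upstream of Dntt, which defines the cells, and of Wfdc17, the gene with the greatest rise over Dntt-free Flt3 cells under the naming rule, are shown because E proteins such as Tcf3 act on lymphoid genes through the E-box. The letters searched were CANNTG on both strands (the motif reads the same on each), in the 250 bases before the RefSeq start (GRCm38.p6, plus strand, 5′ to 3′). The Dntt window (chr19:41029025-41029274) held 3 matches and the Wfdc17 window (chr11:83703806-83704055) held 1, in capitals. Of 32851 promoter windows of that length 66.2% held at least 1 match, 31.8% at least 2 and 12.2% at least 3.
Dntt: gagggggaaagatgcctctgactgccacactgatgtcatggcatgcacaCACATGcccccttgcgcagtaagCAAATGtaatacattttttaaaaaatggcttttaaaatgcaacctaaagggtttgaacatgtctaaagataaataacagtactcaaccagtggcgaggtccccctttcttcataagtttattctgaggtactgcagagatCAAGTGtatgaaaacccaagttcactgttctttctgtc
Wfdc17: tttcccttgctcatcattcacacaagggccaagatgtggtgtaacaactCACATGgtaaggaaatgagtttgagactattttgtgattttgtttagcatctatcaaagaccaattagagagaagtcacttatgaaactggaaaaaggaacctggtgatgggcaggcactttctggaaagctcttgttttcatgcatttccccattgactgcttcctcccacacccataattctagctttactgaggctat

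The markers went with the label. Satb1, a chromatin organiser of early lymphoid cells, was found in 36.0% of Dntt/Flt3 cells when each cell was thinned to 2759 UMIs, against 1.30% of erythroid reference cells. Notch1, the receptor whose signal directs progenitors to the T lineage, was found in 19.8% and 0.567%, and Wfdc17, a secreted protein of the WAP family, in 55.2% and 1.30%. Without thinning the shares in Dntt/Flt3 cells were 71.5%, 44.3% and 81.8% for Satb1, Notch1 and Wfdc17, and those in erythroid reference cells 4.40%, 2.12% and 6.03%. All 3 markers thus stood far above the background of the droplets. Of 16 B lineage genes in the table Pax5 was at 0 UMIs in all 1798 cells, and of 16 T and NK lineage genes Bcl11b and Cd3e were, while the others were detected. The summed level was 258 to 330 CPM per pool for the B lineage list (304 to 407 CPM in erythroid reference cells) and 169 to 286 CPM for the T and NK lineage list (80.2 to 189 CPM). A count of 0 allows a share of up to 0.167% of cells with a UMI, if all 1798 cells are taken as independent draws.

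The cells were not devoid of myeloid transcripts. Prtn3 (proteinase 3) was found in 66.2% of the thinned cells and Mpo (myeloperoxidase) in 47.9%, against 18.4% and 23.4% of erythroid reference cells. Cd34, a surface protein of progenitors, was found in 69.6% against 3.09%, and Hlf, a transcription factor of stem cells, in 17.7% against 0.862%. Elane (neutrophil elastase) was close to the reference, at 21.4% against 19.3%, and Ms4a3, S100a8 and Camp were at it, with 3.77%, 63.0% and 24.3% against 3.99%, 62.1% and 24.4%. Over all pools, shares at the level of the reference were read as background. If each droplet held a like amount of free RNA, thinning would leave less of it in the deeper reference cells. The thinned shares of the reference could thus be too low as a measure of background. Without thinning Prtn3 was found in 89.1% against 61.2%, Mpo in 78.5% against 67.3%, Elane in 49.6% against 60.2% and Ms4a3 in 9.85% against 16.9%, with the reference cells the deeper ones.

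Dntt levels spread widely within the rule. The median Dntt/Flt3 cell held 6 Dntt UMIs (quartiles 3 and 13, highest 60) and 2 Flt3 UMIs (highest 10). In CPM, the UMIs of a gene per 1000000 UMIs summed over the cells of a pool, Dntt stood at 900, 1050, 992 and 824 in SPF pools 1, 2, 7 and 8 and at 1290, 887, 1008 and 885 in CVT pools 3, 4, 5 and 6. Flt3 stood at 308, 268, 248 and 252 in those SPF pools and at 262, 210, 276 and 236 in those CVT pools. The groups overlapped for both genes. Il7r-positive cells held a median of 22 Dntt UMIs, and their Dntt level was 2067 ± 365 CPM against 979 ± 146 in Dntt/Flt3 cells, an order that the rule did not set.

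The threshold lay within a gradient. Of the 1798 cells 319 held exactly 2 Dntt UMIs and 569 exactly 1 Flt3 UMI, and just outside lay 687 cells with 1 Dntt UMI and 366 cells with Dntt but no Flt3. Satb1 was at 127 ± 25.9 CPM in cells with 2 Dntt UMIs and 85.4 ± 11.8 in cells with 1. Wfdc17 was at 434 ± 140 and 234 ± 53.5 CPM, and Prtn3 at 919 ± 233 and 1449 ± 231. In each of the 8 pools Satb1 and Wfdc17 were higher, and Prtn3 lower, on the inner side of the limit. At the Flt3 limit the step was smaller, with Satb1 at 152.5 ± 25.2 CPM in cells with 1 Flt3 UMI and 133 ± 32.4 in cells with none, and Wfdc17 at 465 ± 111 and 392 ± 72.8 CPM.

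Inside the rule, several lymphoid genes were higher and granule genes lower in cells with more Dntt, which is a description with no test, since Dntt chose the cells. From 2 over 3 to 5 and 6 to 12 up to 13 or more Dntt UMIs (319, 486, 510 and 483 cells), Notch1 was at 41.7 ± 8.16, 54.4 ± 11.7, 74.7 ± 15.1 and 96.4 ± 28.2 CPM. Over the same 4 classes Il12a, which encodes the p35 subunit of interleukin-12, was at 117, 130, 176 and 223 CPM. Myl10, a myosin light chain of precursor lymphocytes, was at 321, 329, 420 and 645 CPM. The top class was above the lowest in 8 of 8 pools for Satb1, Notch1, Il12a, Myl10 and Cox6a2. Other genes were less regular, with Gimap6 above in 7 pools, Rag1 and Ccr9 in 5 and Ltb in 3. The summed lymphoid priming list was above in 6 pools, with a ratio of 1.15 between the means, and the late granulocyte list in 4.

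Hlf ran the other way, with 117 ± 49.2, 73.2 ± 21.9, 64.0 ± 12.99 and 38.8 ± 17.8 CPM. Prtn3 was at 919 CPM in the lowest class and 354 ± 106 CPM in the top class, and both genes were lower in the top class in 8 of 8 pools. Mpo was lower in 7 of 8 pools, at 667 ± 350 in the lowest class and 301 ± 126 CPM in the top class. Wfdc17 had no such order: it was at 505 and 527 CPM in the middle classes, against 434 and 414 CPM at the ends, and the top class was above the lowest in 4 of 8 pools. The median cell held 8417, 8409.5, 8399.5 and 9295 UMIs in the 4 classes, so depth differed little among them.

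**Figure D1:**
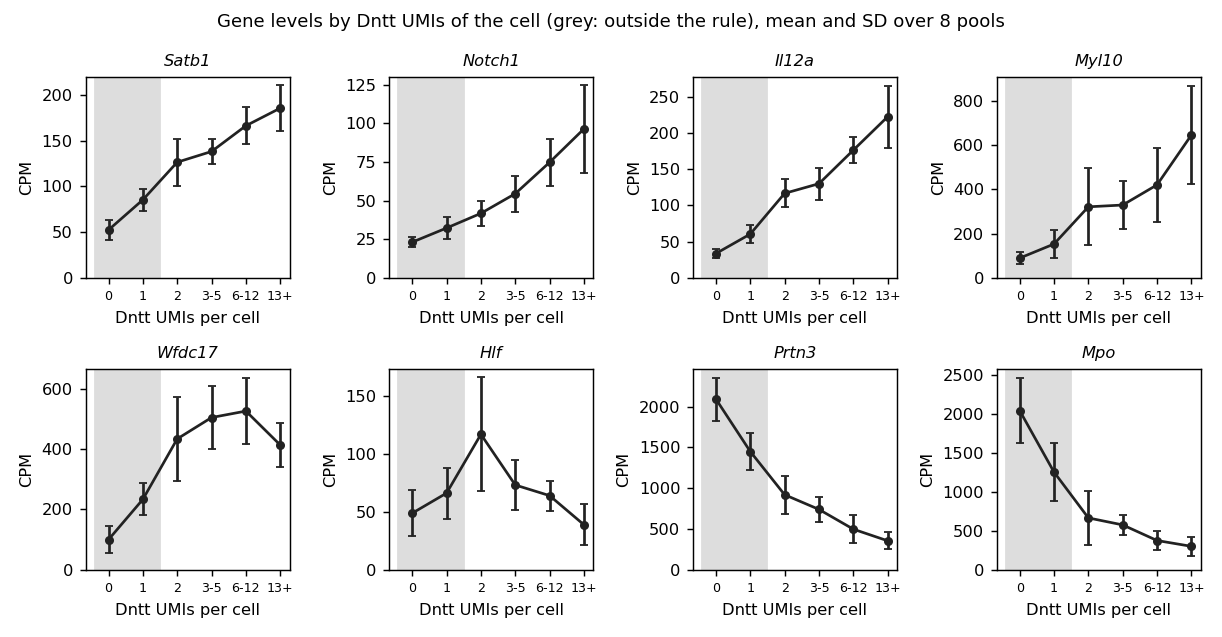
Levels of 8 genes in CPM (mean and SD over 8 pools) by the number of Dntt UMIs in the cell, with the classes outside the rule on grey. Satb1, Notch1, Il12a and Myl10 are higher with more Dntt, Hlf, Prtn3 and Mpo are lower from 2 Dntt UMIs on, and Wfdc17 is highest in the middle classes.

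The question of the first comparison was what else differs between Flt3 cells with and without Dntt. Lymphoid priming and interferon-stimulated genes were higher in Dntt/Flt3 cells and granule, monocyte, erythroid and DNA replication genes lower. A higher sum per pool can come from more cells with the transcript or from more of it per cell. With each cell thinned to 2759 UMIs, Satb1 was found in 36.0% of Dntt/Flt3 cells and 14.8% of Dntt-free Flt3 cells. Notch1 was found in 19.8% and 6.4%, and Wfdc17 in 55.2% and 18.4%. More cells thus held a UMI of these markers, and whether the amount per cell also differed was not tested. Of 10374 genes tested with edgeR's quasi-likelihood test on UMI sums per pool with the pool as a block, 2519 (24.3%) were higher and 2412 (23.3%) lower at an adjusted p of 0.05, against a median log2 fold change of 0.02 over all genes. With every cell thinned to the same depth before the rules were applied, 399 genes were higher and 401 lower of 5374 tested.

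Wfdc17 was at 483, 549, 460, 301, 521, 463, 478 and 556 CPM in pools 1 to 8 of the Dntt/Flt3 cells, and at 104.6, 71.6, 56.5, 40.4, 111, 112, 187 and 117 CPM in the Dntt-free Flt3 cells. The lowest Dntt/Flt3 pool lay above the highest Dntt-free pool (log2 fold change 2.31, SE 0.10, edgeR adjusted p = 1.0e-17). Il12a was at 162, 179, 191, 143, 179, 157, 186 and 135 CPM against 34.7, 34.3, 29.7, 22.6, 32.9, 33.4, 44.4 and 36.8 CPM, with no overlap (2.27, SE 0.06, edgeR adjusted p = 1.3e-22). Myl10 was at 438 ± 160 against 89.2 ± 28.5 CPM (2.24, SE 0.09). It ranged from 268 to 722 CPM, the widest spread among the 3 genes of the greatest difference, and was higher in 8 of 8 pools.

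The other genes of the naming rule, which asked for the 10 greatest changes per direction among genes of at least 50 CPM that moved alike in all pools, were Smad7, Gm5111, H2-Ob, Shisa8, P2ry14, Gimap6 and Sept1. Smad7, an inhibitor of TGF-β signalling, was at 62.7 ± 12.3 against 14.01 ± 2.01 CPM (log2 fold change 2.16, SE 0.09). H2-Ob, a chain of the H2-O protein that moderates the loading of MHC class II, was at 60.2 ± 11.9 against 14.6 ± 3.41 CPM (1.99, SE 0.08). P2ry14, a receptor for UDP-sugars, had a change of 1.85, Gimap6, a GTPase of lymphocytes, of 1.67, and Sept1, a septin, of 1.57. Gm5111 and Shisa8 differed by 2.14 and 1.88.

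Of 24 tested genes of the lymphoid priming list 18 were higher and 1 lower, with a median log2 fold change of 0.97. Satb1 was at 136, 170, 158, 132, 175, 155, 166 and 164 CPM in pools 1 to 8, against 41.2 to 65.5 CPM in Dntt-free Flt3 cells, and did not overlap with them (1.54, SE 0.06). Notch1 was at 64.5, 67.9, 85.2, 56.8, 75.1, 69.1, 83.6 and 52.0 CPM against 19.7 to 27.8 CPM, again with no overlap (1.51, SE 0.07). Mef2c, a transcription factor that favours the lymphoid over the myeloid fate, was at 429 ± 46.9 against 205 ± 14.5 CPM (1.004, SE 0.04). The surface genes Cd27 and Cd52 differed by 0.69 and 0.30, and Ltb (lymphotoxin beta) by 1.37. With thinned cells 14 of 19 tested genes of this list were higher and 0 lower.

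Dntt's partners in antigen receptor joining were split, with 6 of 10 tested genes higher and 2 lower. Rag2, a subunit of the recombinase that cuts the segments, was at 8.59 ± 2.74 against 0.859 ± 0.478 CPM (3.06, SE 0.26), and Xrcc6 (Ku70), which holds the cut ends, at 91.5 ± 9.89 against 45.4 ± 4.19 CPM (0.96, SE 0.06). The DNA-bending proteins Hmgb1 and Hmgb2 were lower, by 0.23 and 0.40. With thinned cells 1 of 4 tested joining genes was higher and 0 lower. Of 7 tested B lineage genes 3 were higher and 1 lower, among the former Blnk, an adaptor of B cell receptor signalling, at 9.10 ± 3.23 against 1.02 ± 0.351 CPM (3.07, SE 0.22). Of 7 T and NK lineage genes 3 were higher and 2 lower, with Lck, a kinase of the T cell receptor, at 28.8 ± 8.70 against 4.73 ± 1.56 CPM (2.59, SE 0.13) and Nkg7, a granule gene of cytotoxic cells, lower by 0.49. Most genes of both lineage lists were too low to be tested (16 genes of each in the table). Blnk and Rag2, near 0 in Dntt-free Flt3 cells, passed the filter on low counts through the Dntt/Flt3 cells, so that their direction was set by the filter. The B lineage and joining counts include Blnk and Rag2. DESeq2 called 5 of 13 B lineage genes higher and 0 lower.

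Against the 24.3% of all genes that were higher, the counts of signalling genes were as follows. Of 19 genes around Flt3 signalling 8 were higher and 1 lower with a median of 0.16, among them Pik3r1, a regulatory subunit of PI3-kinase (0.54, SE 0.05), and Inpp5d, the phosphatase SHIP1 that opposes it (0.55, SE 0.07). Of 16 Notch pathway genes 5 were higher and 1 lower with a median of 0.12, a share near that of all genes. With thinned cells 1 of 13 Flt3 signalling genes and 1 of 8 Notch pathway genes were higher and 0 lower. Interferon-stimulated genes were higher in 22 of 29 and lower in 0 (median 0.62), but the 4 of highest level, Psmb8, Ifitm3, Psmb9 and Bst2, did not pass the test. With thinned cells 6 of 18 interferon-stimulated genes were higher and 0 lower. Immediate early genes of the AP-1 list were higher in 14 of 17 and lower in 0, with Jund at 0.66, and in 3 of 15 with thinned cells. Of 12 dendritic lineage genes 4 were higher and 3 lower, with Runx2 higher by 0.51 and Irf8, a factor of dendritic cells and monocytes, lower by 0.70. Of 9 MHC class II genes 4 were higher and 2 lower.

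Most myeloid genes were lower. F13a1, a coagulation factor chain made by monocytes, was at 13.4 ± 5.16 CPM in Dntt/Flt3 cells and 150 ± 31.3 CPM in Dntt-free Flt3 cells, the greatest fall among the genes of the naming rule in this comparison (log2 fold change -3.47, SE 0.09). Elane was at 121, 58.5, 242, 274, 233, 264, 35.0 and 159 CPM in pools 1 to 8 against 956 to 1714 CPM (-2.95, SE 0.15). Every Dntt-free pool was above every Dntt/Flt3 pool for Elane. Mpo was at 460 ± 120 against 2048 ± 421 CPM (-2.24, SE 0.05), Ctsg (cathepsin G) at 332 ± 97.4 against 1562 ± 239 CPM (-2.32, SE 0.06) and Prtn3 at 598 ± 116 against 2092 ± 264 CPM (-1.88, SE 0.04). The monocyte genes Ly6c2 and Ccr2 differed by -2.96 and -2.89, and Ms4a3, Hp and Tifab by -2.81, -2.68 and -2.39.

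Of the 20 granulocyte and monocyte genes 18 were lower and 1 higher (median -1.92), and of 11 late granulocyte genes 11 were lower, with S100a8 and Camp at -1.43 and -1.66. Of 17 erythroid and megakaryocyte genes 13 were lower and 2 higher, with Car1 (carbonic anhydrase 1) at -1.47 and Hba-a1 (alpha globin) at -2.50. Of 25 DNA replication genes 20 were lower and 0 higher (median -0.25). In the thinned cells the granulocyte and monocyte, late granulocyte, erythroid and megakaryocyte and DNA replication lists kept this direction, with 14 of 15, 9 of 9, 8 of 9 and 8 of 23 genes lower and 0 higher.

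Other lists changed when cells of high UMIs were left out or cells were thinned. Thinning came before the rules were applied, so it also changed which cells were compared. Of 733 cells that met the Dntt/Flt3 rule after thinning, 627 also met it with all UMIs. The part of depth in these changes was not tested. Stem cell genes were higher in 12 of 17 and lower in 3, with Cd34 at 0.55 and Ctla2a at 0.74, but in 8 of 17 without cells of high UMIs and in 3 of 15 with thinned cells, of which 4 were lower and the median was -0.09. Hlf was higher by 0.50 (SE 0.09) in all cells and differed by -0.66 in thinned cells. Mitosis genes were lower in 16 of 25 and higher in 1, while without cells of high UMIs 6 were lower and 3 higher, and in thinned cells 2 of 19 were lower and 6 higher. Cytosolic ribosomal protein genes were higher in 10 and lower in 35 of 81 in all cells, and higher in 16 and lower in 2 when thinned.

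**Figure D2:**
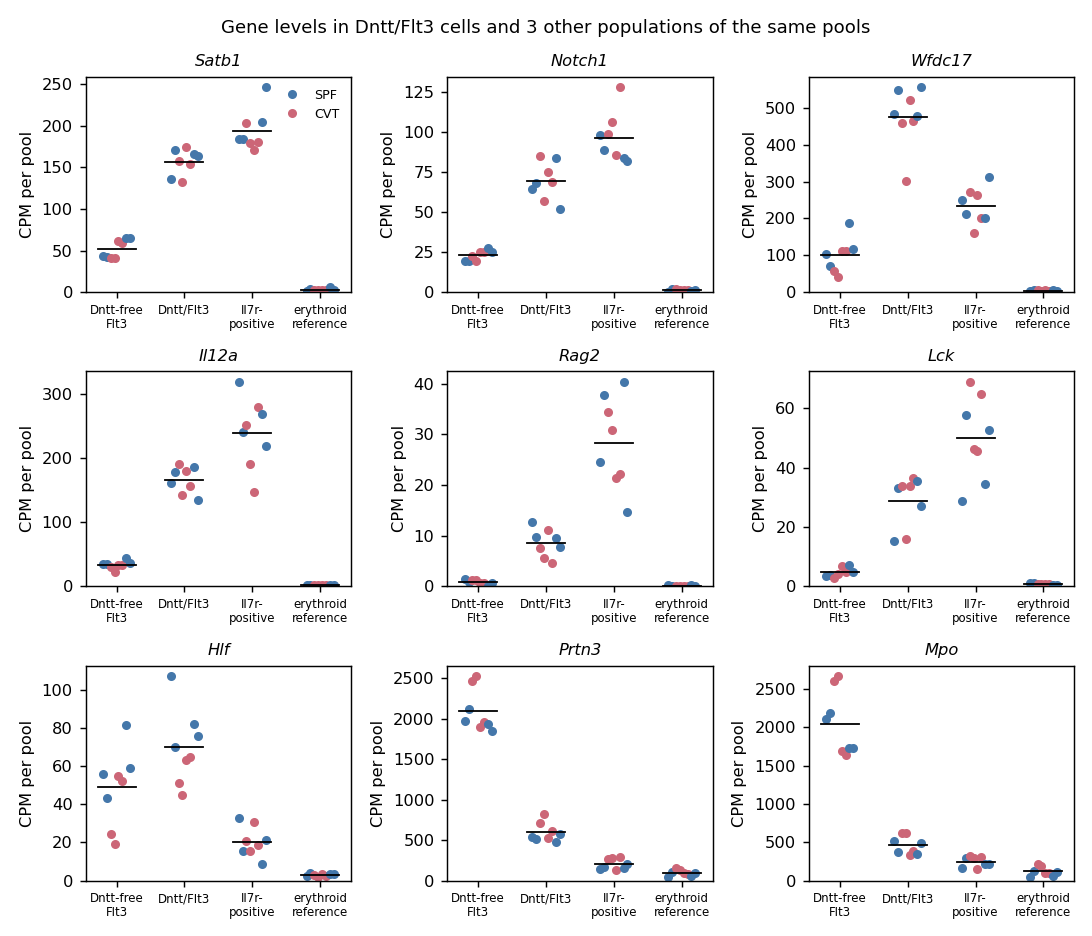
Levels of 9 genes in CPM per pool in Dntt-free Flt3, Dntt/Flt3, Il7r-positive and erythroid reference cells, with a point for each of 8 pools (SPF blue, CVT red) and a line at the mean. Satb1, Notch1 and Il12a are higher from the first to the third population and Prtn3 and Mpo lower, while Wfdc17 and Hlf have their highest mean in Dntt/Flt3 cells.

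The next comparison asked how the cells differ from those that also carry Il7r. Dntt/Flt3 cells had more stem cell transcripts and fewer mitosis transcripts. Myeloid and ribosomal protein genes were also called higher, but few or none of them with thinned cells. The B lineage and antigen receptor joining genes called were lower, in counts that include genes whose direction was set by the filter on low counts. Of 7895 genes 352 (4.46%) were higher and 417 (5.28%) lower (edgeR, pool as a block, adjusted p 0.05). Both comparisons use the same Dntt/Flt3 cells, so their values are set side by side and no overlap is drawn. Only 20 to 76 Il7r-positive cells came from each pool, and with DESeq2 185 genes were higher and 263 lower, without the pool block 188 and 282, and with thinned cells 22 and 13 of 1742.

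Hlf was at 70.02 ± 19.4 CPM in Dntt/Flt3 cells, 20.4 ± 7.97 in Il7r-positive cells and 48.8 ± 19.9 in Dntt-free Flt3 cells, a change of 1.74 (SE 0.15, edgeR adjusted p = 6.6e-14) against Il7r-positive cells. Ltb was at 68.7 ± 13.02 against 19.6 ± 8.93 CPM (1.72, SE 0.16) and Wfdc17 at 476 ± 80.1 against 234 ± 48.8 CPM (1.02, SE 0.06). All 3 were higher in 8 of 8 pools. Against Dntt-free Flt3 cells, too, Ltb and Wfdc17 were higher, so that their mean was highest in the cells with Dntt and without Il7r.

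The granule genes held a middle place. Prtn3 was at 205 ± 63.7 CPM in Il7r-positive cells, 598 ± 116 in Dntt/Flt3 cells and 2092 ± 264 in Dntt-free Flt3 cells (1.53, SE 0.06 against Il7r-positive cells). Ctsg differed by 1.26, Elane by 1.11 and Mpo by 0.88 from Il7r-positive cells. Elane did not keep its direction with thinned cells (-0.25, edgeR adjusted p = 0.855). Of 17 granulocyte and monocyte genes 11 were higher and 1 lower, and of 9 late granulocyte genes 5 were higher, but 1 without cells of high UMIs and 0 with DESeq2. With thinned cells 2 of 8 granulocyte and monocyte genes were higher and 1 lower, and 0 of 3 late granulocyte genes higher or lower.

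Of 16 stem cell genes 12 were higher and 0 lower with a median of 0.55, among them Cd34 (0.33), Ctla2a (0.60), Ifitm1 (1.23) and Ifitm3 (0.63), the last 2 coding for interferon-induced membrane proteins. The other genes of the naming rule were Ccl9, a chemokine of myeloid cells (1.604), Rab38, a small GTPase (1.501), and Cd63, a tetraspanin of granules and endosomes (1.38). AP-1 genes were higher in 9 of 16, with Jun at 0.66 and Fos at 0.57, and cytosolic ribosomal protein genes in 43 of 81, with a median of 0.07. Those 2 lists had 0 genes lower. Without the pool block only 2 AP-1 genes and 1 ribosomal protein gene were higher. With thinned cells 4 of 8 stem cell genes, 2 of 7 AP-1 genes and 0 of 80 ribosomal protein genes were higher, and 0 lower.

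Among the named genes, Ly6d, which marks lymphoid progenitors biased to the B lineage, was at 3.13 ± 2.82 CPM in Dntt/Flt3 cells and 104.96 ± 96.4 CPM in Il7r-positive cells (-4.93, SE 0.22, edgeR adjusted p = 1.5e-26). Cox6a2, a subunit of cytochrome c oxidase, was at 29.2 ± 9.67 against 151 ± 47.4 CPM (-2.29, SE 0.11) and Arpp21 at 22.4 ± 6.62 against 94.97 ± 33.6 CPM (-2.14, SE 0.13). Rag2 was at 8.59 ± 2.74 against 28.3 ± 8.99 CPM (-1.81, SE 0.21) and Blnk at 9.10 ± 3.23 against 38.6 ± 13.5 CPM (-2.08, SE 0.18). Dntt-free Flt3 cells held 0.767 ± 0.431 CPM of Arpp21, 0.859 of Rag2 and 1.02 of Blnk, so Dntt/Flt3 cells stood between the 2 other populations for all 3. Ly6d, Rag2 and Blnk were low in Dntt/Flt3 cells and passed the filter on low counts through the Il7r-positive cells, so their direction in this comparison was set by the filter.

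In numbers, 0 of 7 B lineage genes were higher and 4 lower, 0 of 9 joining genes higher and 4 lower, 0 of 5 T and NK lineage genes higher and 2 lower, and 0 of 11 dendritic lineage genes higher and 4 lower. The B lineage and joining counts include Blnk and Rag2, whose direction was set by the filter. Lck differed by -0.84, Xrcc6 by -0.71 and Irf8 by -0.44. The lymphoid priming list had no common direction, with 4 of 23 genes higher and 6 lower. Satb1 (-0.30), Notch1 (-0.48), Il12a (-0.49), Mef2c (-0.36) and Myl10 (-0.67) were all lower than in Il7r-positive cells, but Notch1 and Il12a were above 0 with thinned cells, at 0.30 and 0.14 (edgeR adjusted p = 0.834 and 0.876). Cmah, an enzyme of sialic acid synthesis, differed by -1.51, Mpeg1 (perforin-2) by -1.46 and Ctr9, of the PAF1 complex on RNA polymerase, by -1.09.

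Transcripts of dividing cells were lower. Of 25 mitosis genes 24 were lower than in Il7r-positive cells and 0 higher (median -0.84), and of 25 DNA replication genes 10 were lower and 0 higher. Top2a, a topoisomerase of dividing cells, was at 203 ± 47.1 against 407 ± 93.0 CPM (-0.97, SE 0.06), and the spindle genes Nusap1, Hmmr and Birc5 differed by -1.28, -1.08 and -0.67. Ube2c, an enzyme of the anaphase-promoting complex, differed by -1.23, Cks2, a cyclin-dependent kinase subunit, by -0.36 and the histone gene Hist1h4d by -1.57. The mitosis list kept its direction without cells of high UMIs, with 24 of 25 genes lower, and had 2 of 8 lower with thinned cells.

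**Figure D3:**
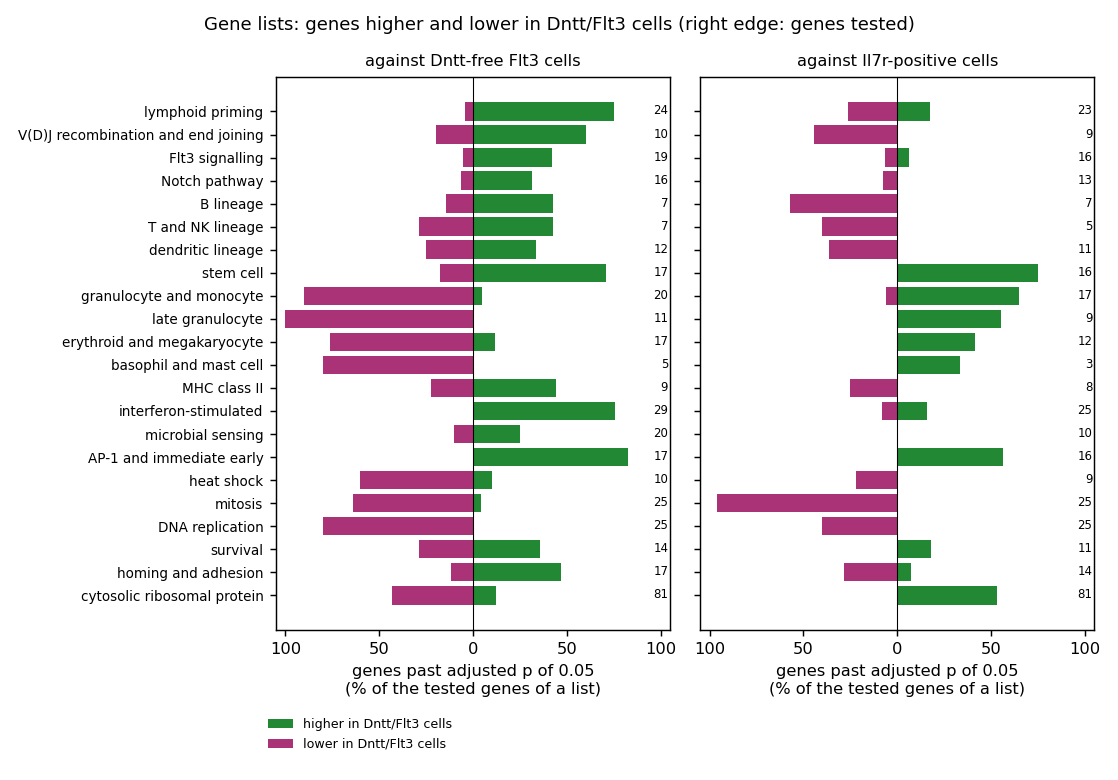
Bars show, for each of 22 gene lists, the percent of its tested genes that were higher (right) or lower (left) in Dntt/Flt3 cells at an adjusted p of 0.05, against Dntt-free Flt3 cells and against Il7r-positive cells, with the number of genes tested at the right edge. Lymphoid priming genes stand to the right in the first panel (18 of 24) and mitosis genes to the left in the second (24 of 25).

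The share of Dntt/Flt3 cells was compared between housing groups because the study asked whether conventional co-housing changes the make-up of the progenitors. The share did not differ detectably. Dntt/Flt3 cells made up 4.71%, 8.43%, 7.07% and 5.16% of the KL cells of SPF pools 1, 2, 7 and 8 and 6.502%, 5.51%, 5.34% and 5.43% of those of CVT pools 3, 4, 5 and 6. The means were 6.34% ± 1.72 (SD, n = 4) and 5.70% ± 0.541 (SD, n = 4), a difference of -0.648 percentage points (exact permutation test over 70 regroupings, two-sided p = 0.6, where the smallest possible p is 0.0286). All CVT values lay within the range of the SPF pools.

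The direction was not stable. With cells thinned to the same depth the share was 2.44% ± 0.661 (SD, n = 4) in CVT pools and 2.43% ± 0.660 in SPF pools, and without SPF pool 2 the difference was 0.0467 percentage points. Within pools 1 to 4 the mean share was 6.005% in CVT and 6.57% in SPF pools, and within pools 5 to 8 it was 5.39% and 6.12%.

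**Figure D4:**
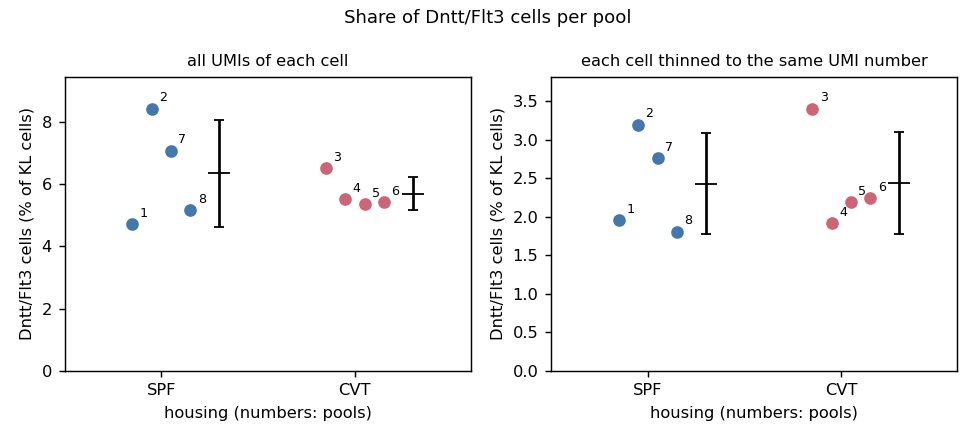
Dntt/Flt3 cells as a percent of the KL cells of each pool (points, with the pool number beside them) with the mean and SD of each group, for all UMIs and for cells thinned to the same UMI number. The CVT pools lie between 5.34% and 6.502%, inside the SPF range of 4.71% to 8.43%.

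Within Dntt/Flt3 cells, 4 genes were higher in CVT pools: the myeloid genes Ms4a3 and Elane and the metallothioneins Mt1 and Mt2, small metal-binding proteins induced by zinc and by stress. Of 9168 genes tested with edgeR these 4 (0.0436%) were higher and 0 (0.0%) lower at an adjusted p of 0.05. With no adjustment of p, 278 (3.03%) were higher and 212 (2.31%) lower. DESeq2 called 3 higher and 0 lower, without Elane. The Dntt/Flt3 cells held 436 UMIs of Ms4a3, 722 of Mt1, 261 of Mt2 and 3163 of Elane in all.

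Ms4a3, a gene of granulocyte and monocyte progenitors, was at 13.9, 8.45, 5.48 and 17.8 CPM in SPF pools 1, 2, 7 and 8 and at 38.3, 27.5, 35.1 and 43.6 CPM in CVT pools 3, 4, 5 and 6 (log2 fold change 1.72, SE 0.23, edgeR adjusted p = 0.0016). Elane was at 121, 58.5, 35.0 and 159 CPM in SPF pools and 242, 274, 233 and 264 CPM in CVT pools (1.51, SE 0.24, edgeR adjusted p = 0.0051). Mt1 was at 20.2, 28.3, 13.02 and 21.9 CPM against 63.8, 69.2, 35.1 and 50.5 CPM (1.37, SE 0.20, edgeR adjusted p = 0.0024). For these 3 genes every CVT pool lay above every SPF pool. So it did for Mt2, at 2.53, 7.15, 2.74 and 6.39 CPM against 31.0, 25.6, 11.2 and 17.3 CPM (2.03, SE 0.31, edgeR adjusted p = 0.0038). Such a separation was found for 85 (0.927%) of all genes tested, and the reverse, every CVT pool below, for 257 (2.8%). By chance each of these orders arises in 1 of the 70 regroupings of 8 pools. Mt2 was low in the SPF pools, which alone would not have passed the filter on low counts, so it was tested through the CVT pools. The log2 ratio of the means within pools 1 to 4 and within pools 5 to 8 was 1.56 and 1.76 for Ms4a3, 1.52 and 1.36 for Elane, 1.46 and 1.29 for Mt1, and 2.55 and 1.64 for Mt2.

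Single cells held large parts of some of these sums. The cell with the most UMIs of a gene held 2.22% to 68.8% of a pool's Elane UMIs, 7.69% to 72.2% of its Ms4a3 UMIs, 8.05% to 34.2% of its Mt1 UMIs and 4.55% to 63.2% of its Mt2 UMIs. Without that cell in each pool, a setting chosen after seeing the data, none of the 4 genes passed, with log2 fold changes of 1.45 for Ms4a3, 1.40 for Elane, 1.17 for Mt1 and 1.46 for Mt2 (edgeR adjusted p = 0.171, 0.0711, 0.137 and 0.601). There were 87 Dntt/Flt3 cells with more than 2 times the median UMIs of their pool (8, 8, 17 and 17 in SPF pools 1, 2, 7 and 8, and 7, 3, 13 and 14 in CVT pools 3, 4, 5 and 6). Without them the changes were 1.72 for Ms4a3, 1.47 for Elane, 0.93 for Mt1 and 1.30 for Mt2, with edgeR adjusted p of 0.120, 0.223, 0.584 and 0.473. With thinned cells, chosen after seeing the data, Elane passed (1.29, edgeR adjusted p = 0.0222). Over all alternatives the edgeR or DESeq2 adjusted p ran from 2.4e-17 to 0.891 for Ms4a3, 5.7e-50 to 1.0 for Elane, 1.2e-17 to 0.584 for Mt1 and 7.4e-15 to 0.601 for Mt2. Whether the cells of high UMIs were doublets was not tested.

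The same genes were measured in erythroid reference cells. In those cells, which should not make it, Elane was at 43.0, 98.9, 44.6 and 123 CPM in SPF pools 1, 2, 7 and 8 and at 197, 157, 104.1 and 81.2 CPM in CVT pools 3, 4, 5 and 6, with overlap. Ms4a3 was there at 11.2 ± 5.41 (SD, n = 4) CPM in SPF and 20.1 ± 6.80 CPM in CVT pools, against 11.4 ± 5.50 and 36.1 ± 6.76 CPM in Dntt/Flt3 cells. The SPF mean of Ms4a3 in Dntt/Flt3 cells was near that of the reference and the CVT mean above it. The reference cells were deeper, with a median of 15424.5 UMIs against 8654.5, so a like amount of free RNA would stand at a lower CPM in them. These levels are thus not compared at equal depth, and the part of free RNA in the difference was not tested. Mt1 and Mt2 were high in erythroid reference cells, at 854 ± 74.7 and 460 ± 69.3 CPM, against 37.8 ± 21.0 and 12.99 ± 10.7 CPM in Dntt/Flt3 cells. Whether they differed by housing in the reference cells was not tested. The study listed all 4 genes, Elane, Ms4a3, Mt1 and Mt2, among those raised in KL cells of CVT mice, so their rise is not particular to Dntt/Flt3 cells.

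The upstream sequences of Mt1 and Mt2 are shown because both genes were higher in the CVT pools and lie close together on chromosome 8. The letters searched were TGCNCNC on both strands, a loose form of the core of the metal response element that the zinc-dependent factor Mtf1 binds. In the 250 bases before the RefSeq start (GRCm38.p6, plus strand, 5′ to 3′) the Mt1 window (chr8:94178839-94179088) held 1 match and the Mt2 window (chr8:94172368-94172617) held 5, in capitals. At least 1 match was found in 44.4% of the 32851 windows and at least 5 in 0.344%. A match describes the letters and no site of binding, and the 2 genes are similar in sequence, so the authors' counting could have split reads between them.
Mt1: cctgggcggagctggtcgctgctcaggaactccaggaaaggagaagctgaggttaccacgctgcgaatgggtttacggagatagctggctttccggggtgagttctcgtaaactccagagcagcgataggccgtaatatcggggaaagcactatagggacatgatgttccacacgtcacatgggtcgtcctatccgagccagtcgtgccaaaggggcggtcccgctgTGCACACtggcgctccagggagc
Mt2: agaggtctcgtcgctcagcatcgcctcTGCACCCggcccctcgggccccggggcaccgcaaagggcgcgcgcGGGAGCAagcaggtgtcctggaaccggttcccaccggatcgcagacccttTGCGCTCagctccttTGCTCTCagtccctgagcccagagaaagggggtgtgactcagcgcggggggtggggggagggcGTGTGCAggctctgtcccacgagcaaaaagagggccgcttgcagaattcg

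The next genes by p-value did not pass the test. Ly6c2 differed by 0.99 (edgeR adjusted p = 0.14), with 22.7, 17.2, 20.6 and 34.7 CPM in the SPF and 49.0, 55.7, 28.8 and 47.3 CPM in the CVT pools, and its groups overlapped. In the other direction Tmem158 differed by -1.11, Gem, a small GTPase, by -0.88, Stxbp4 by -0.65, Shisa5 by -0.33 and Dusp22, a phosphatase, by -1.14 (edgeR adjusted p of 0.21 to 0.42). Tmem158 was at 25.3, 26.3, 23.3 and 22.4 CPM in the SPF pools and 4.48, 10.9, 14.6 and 15.5 CPM in the CVT pools.

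Lymphoid genes showed no difference by housing that passed the test. Of 23 tested lymphoid priming genes 0 passed at 0.05 with or without adjustment, and DESeq2 called no gene but Ms4a3, Mt1 and Mt2 over the whole table. Satb1, Notch1 and Wfdc17 differed by -0.02 (SE 0.09), 0.15 (SE 0.13) and -0.21 (SE 0.11). With no adjustment, against 3.03% higher and 2.31% lower of all genes, 12 of 25 mitosis genes were higher and 0 lower (median 0.35), 9 of 20 granulocyte and monocyte genes higher and 1 lower, 14 of 81 cytosolic ribosomal protein genes higher and 0 lower, 5 of 15 erythroid and megakaryocyte genes higher and 0 lower, 5 of 17 AP-1 genes higher and 0 lower, 0 of 17 stem cell genes higher and 5 lower, and 0 of 29 interferon-stimulated genes higher and 5 lower. Of all these only Ms4a3 and Elane, both on the granulocyte and monocyte list, passed the adjusted test. The summed level of the mitosis list was 1663 ± 221 (SD, n = 4) CPM in CVT and 1318 ± 285 CPM in SPF pools, and the groups overlapped.

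**Figure D5:**
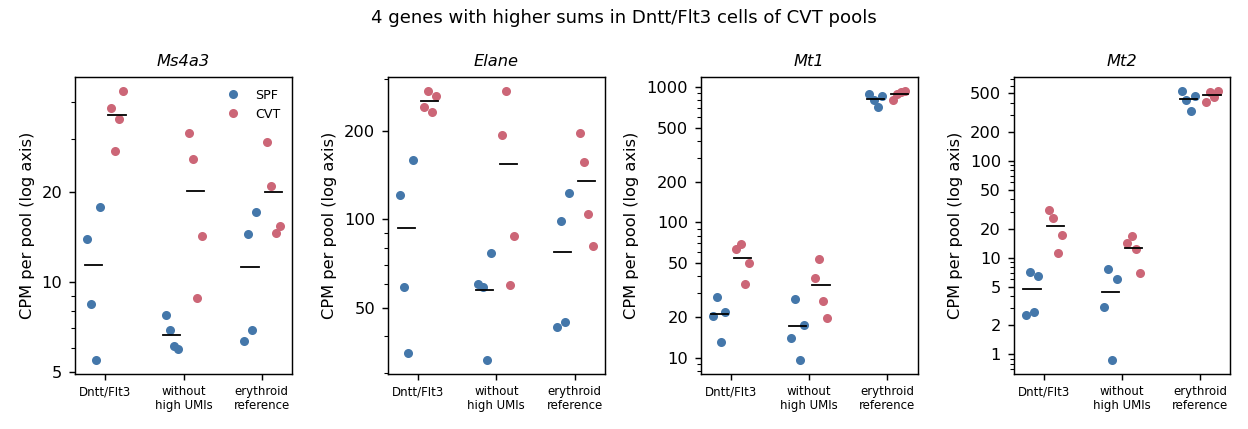
Levels of Ms4a3, Elane, Mt1 and Mt2 in CPM per pool on a log axis (SPF blue, CVT red, line at the group mean) in Dntt/Flt3 cells, in the same cells without those of high UMIs, and in erythroid reference cells. CVT points lie above all SPF points in the Dntt/Flt3 cells of each panel, and the groups overlap for Elane and Ms4a3 in the erythroid reference.

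The number of genes called between housing groups varied with the settings. It was 1 without cells of high UMIs, 2 with thinned cells (chosen after seeing the data), 15 with the 2 sets of pools as a block and 55 with no filter on low counts. It was 0 with 89 cells drawn from each pool and 0 with a limit of 1 Dntt UMI. With that limit the log2 fold change was 0.64 for Ms4a3 (edgeR adjusted p = 0.812) and 0.32 for Elane (0.967), and 1.19 for Mt1 and 1.86 for Mt2. Leaving out CVT pool 5 gave 14 genes and leaving out any other pool 3 to 6, and without SPF pool 2 Elane did not pass (edgeR adjusted p = 0.0806).

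Whether the housing difference, as a ratio, was larger in Dntt/Flt3 cells than in Dntt-free Flt3 cells was tested as an interaction. Mt1 (0.87, SE 0.16) and Ms4a3 (1.44, SE 0.26) passed, both with an edgeR adjusted p of 0.032, which is 2 of 10374 genes higher (0.0193%) and 0 (0.0%) lower. With no adjustment of p, 346 were higher and 215 lower. In Dntt-free Flt3 cells Mt1 was at 168 ± 30.7 (SD, n = 4) CPM in CVT and 132 ± 30.9 CPM in SPF pools, and Ms4a3 at 175 ± 42.0 and 151 ± 10.8 CPM. Both populations thus held more Mt1 and Ms4a3 in CVT pools on average, with overlapping groups in Dntt-free Flt3 cells. The test compares ratios, and both genes were lower in Dntt/Flt3 cells. There the Ms4a3 means of pools 1 to 4 and of pools 5 to 8 were 11.2 and 11.6 CPM in SPF and 32.9 and 39.4 CPM in CVT pools. Those of Mt1 were 24.3 and 17.5 CPM against 66.5 and 42.8 CPM. Whether the rise in CPM differed between the populations was not tested.

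This result was not stable. DESeq2 called 0 genes (50 higher and 35 lower with no adjustment). In 2 settings chosen after seeing the data the result also changed: without cells of high UMIs the count was 0, with Mt1 at 0.03 and Ms4a3 at 0.45, and with thinned cells 2 genes other than Mt1 and Ms4a3 passed and Mt1 differed by -0.42 (edgeR adjusted p = 0.958). Leaving out 1 pool gave 0 to 5 genes: 0 without CVT pool 6 or SPF pool 7, 5 without SPF pool 1 and 4 without SPF pool 8. Of the genes next in order, Elane differed by 1.17 (edgeR adjusted p = 0.067), Mt2 by 1.17 and Myl10 by 0.60, and in the other direction Mcpt8, a mast cell and basophil protease, by -1.38 and Supt6, Mgme1, Zbtb26 and Gm26881 by -0.55, -0.58, -1.33 and -2.39.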

How the data were processed

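Bone marrow KL cells of 8 pools (4 SPF, 4 CVT; 10 mice per group) were captured with the 10x Genomics 3′ v2 kit. The authors aligned reads and counted UMIs with Cell Ranger, and the submitters' processing notes name mm9; the version is not given in the sources used here. The deposited table holds raw UMI counts of 27998 genes in 29891 cells (502 to 5497 genes per cell), and the number after the last dot of a cell name gave its pool. These counts were used as deposited.

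The cells were selected with raw UMIs, and the cell rule, gene lists and tests were chosen with earlier results of these data known. UMIs were summed per pool and population and tested with edgeR 4.0.16 (quasi-likelihood test, TMM, filterByExpr, R 4.3.3) with Benjamini-Hochberg adjustment over all genes tested, at 0.05. Comparisons between populations had the pool as a block. Housing groups were compared over 4 against 4 pools, and the difference in effect as an interaction. Shares were tested by exact permutation (scipy 1.17.1). Alternatives were DESeq2 1.42.0 and those of the closing section. Thinning drew 2759 UMIs from each cell.

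Named genes were the rule genes and markers, then per population comparison the 10 greatest log2 fold changes in each direction among genes past the threshold, alike in 8 pools and with at least 50 CPM in 1 population. For housing, genes past the threshold were named and filled up to 5 per direction by p. From each list up to 4 members of the highest level were named, and Pax5, Bcl11b and Cd3e were chosen after their values were seen. Scrublet marked 92 of 29891 cells (0.308%), was judged not to have worked and was not used, so doublets were not removed. On simulated data with 200 genes changed 2-fold, the test recovered 80.5% of them with 13 false calls for housing (9168 genes), 97.5% with 13 against Dntt-free Flt3 cells (10374 genes) and 91% with 10 against Il7r-positive cells (7895 genes). The simulated counts used the spread that edgeR had fitted to these genes. They held no pool effect and no single cells with large parts of a sum. The simulation thus cannot show how the test fares where the data have these. Promoters came from a RefSeq table (GRCm38.p6), and were matched by symbol. Pools hold different mice, and the housing tests without a block set the group difference against the spread between pools of mice. In the fits with the pool as a block, the error was the spread left between the sums of the same pool.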

Additional observations from a re-analysis of the deposited data

Results flagged for a closer look

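In 4 of 76 groups of 4 pools examined, 1 pool stood apart from the other 3 of its group, where chance marks about 1 in 20 such groups. The share of Dntt/Flt3 cells was 6.502% in CVT pool 3 and 5.508%, 5.344% and 5.431% in the other CVT pools. Gem was at 15.86 CPM in CVT pool 3 and at 10.16, 9.267 and 10.0 CPM in the others. The summed level of the T and NK lineage list was 178.2 CPM in SPF pool 1 and 268.5, 263.2 and 261.4 CPM in the other SPF pools. The summed late granulocyte list was 2589 CPM in SPF pool 7 and 888.4, 896.9 and 1164 CPM in the other SPF pools.

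As a ratio, the housing difference was larger in Dntt/Flt3 cells than in Dntt-free Flt3 cells for Mt1, by 0.8657 on the log2 scale, and for Ms4a3, by 1.436, in the interaction test (edgeR adjusted p = 0.03207 for both). The rise in CPM was not compared by a test. Over the alternatives that test was passed in 9 of 24 fits of these 2 genes.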

How the results depend on the processing

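The share difference changed sign to 0.005 percentage points with thinned cells and 0.0467 without SPF pool 2, and leaving out single pools gave -1.19 to 0.0467. The number of genes called between housing groups was 0 with a limit of 1 Dntt UMI, 0 with 89 cells per pool, 55 with no filter on low counts, 15 with the pool sets as a block, 1 without cells of high UMIs, 2 with thinned cells, and 3 to 14 leaving out single pools (14 without CVT pool 5). The interaction count was 0 with DESeq2, 0 without cells of high UMIs, and 0 to 5 leaving out single pools. Against Dntt-free Flt3 cells 800 genes were called with thinned cells, of 5374 tested, and 4382 to 4833 leaving out single pools. Against Il7r-positive cells 448 were called with DESeq2, 470 without the pool block, 35 with thinned cells, of 1742 tested, and 640 to 741 leaving out single pools. With thinned cells 5 values changed sign: Hlf against Dntt-free Flt3 cells (-0.66), Elane (-0.25), Notch1 (0.30) and Il12a (0.14) against Il7r-positive cells, and Mt1 in the interaction (-0.42). Thinned cells also leave fewer genes and cells to test, and the cause of the changes was not tested.

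Of 754 fits of 54 named genes against Dntt-free Flt3 cells 743 kept direction and call, 10 lost the call and 1 turned. Of 538 fits of 39 genes against Il7r-positive cells 519 kept both, 16 lost the call and 3 turned. Of 72 fits of the 4 housing genes 54 kept both and 18 lost the call. The thinned housing fit and interaction, the interaction without cells of high UMIs and the fits without top cells were chosen after seeing the data. The Scrublet alternatives were not run because it marked too few cells. No paired analysis was possible because the replicate numbers only name pools of different mice, and nothing in the labels ties an SPF pool to a CVT pool. Depth limits the rare transcripts, since a member held a median of 8654.5 UMIs.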

Other observations

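Other lists gave mixed counts, to be read against all genes tested, of which 24.3% were higher and 23.3% lower than in Dntt-free Flt3 cells and 4.46% higher and 5.28% lower than in Il7r-positive cells. Against Dntt-free Flt3 cells 8 of 17 homing and adhesion genes were higher and 2 lower, 5 of 14 survival genes higher and 4 lower, 5 of 20 microbial sensing genes higher and 2 lower, 1 of 10 heat shock genes higher and 6 lower, and 0 of 5 basophil and mast cell genes higher and 4 lower. The survival gene Bcl2, which blocks cell death, differed by 0.27 on the log2 scale. Against Il7r-positive cells 1 of 14 homing and adhesion genes was higher and 4 lower, 2 of 11 survival genes higher and 0 lower, 0 of 9 heat shock genes higher and 2 lower, and 0 of 10 microbial sensing genes higher or lower, with 1 higher when p was not adjusted and 0 by DESeq2.

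Between housing groups none of these lists had a gene past the adjusted test by edgeR, nor by DESeq2. With p not adjusted, where 3.03% of all genes were higher and 2.31% lower, 1 of 12 survival genes was higher, 1 of 15 homing and adhesion genes lower, and 0 of 15 microbial sensing genes higher or lower.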
